A study of Caenorhabditis elegans with 12 samples.

Results

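Circular RNAs (circRNAs) form when the end of an exon is joined back to the start of the same or an earlier exon, a step called back-splicing, and in animals they are often flanked by long introns that can bring the splice sites together. They have no free ends and no poly(A) tail, resist exonucleases, and in worms and flies are known to accumulate in ageing and neural tissue. The circles described here are those that the deposited tables name only by position, with no catalogue name, and whose ends lie at least 1000 bases apart on the genome. They were 903 of the 2136 circRNAs counted, beside 961 shorter circles named by position and 272 circles with a catalogue name.

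All 12 libraries were made from whole N2 worms, the wild type strain, 3 libraries per group. The worms were put on their treatment at the L4 larval stage and kept on it for days, with progeny removed. RNA thus came from adults. Nar+Glu worms received 2% glucose and 25 μM naringin, a citrus flavonoid, dissolved in dimethyl sulfoxide (DMSO). DMSO+Glu worms received 2% glucose and the solvent, Glu worms received 2% glucose alone, and Control worms received none of these. RNA was enriched for poly(A) before a stranded library was made, a step that disfavours circles, and its part in the counts was not tested. The labels do not say that the replicates came from separate cultures, so p-values measure the spread between these libraries, which may be technical.

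A circRNA count is the number of sequencing reads that cross a back-splice junction. Whether the 2 mates of a read pair were counted separately is not given in the sources used here, so a count need not be an independent molecule, and intervals and limits drawn from counts may be too narrow. The libraries held 856 to 1550 such counts each and 13015 in all. The long circles took 3131 of them, the short ones named by position 3855 and the catalogued ones 6029. With so few counts, the share of long circles in 1 library has a 95% Wilson interval of 2.12 to 2.84 percentage points on either side, which covers counting error only. No 2 libraries held identical values.

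Nearly all long circles, as called by CIRCexplorer2, began and ended at annotated exon ends. In the WBcel235 annotation, 880 of the 903 (97.5%) had both ends on exon ends of 1 gene. A further 9 had only the lower coordinate there, 13 only the higher, and 1 fitted 2 genes. Neither end fitted for 0 circles, and among the short circles 99.0% had both ends there. The part of the circle caller in this was not tested. The 880 circles came from 643 host genes, 640 of them protein-coding. The host genes had a median length of 9959 bases and a median of 11 exons, against 2026 bases and 5 exons for the 19985 protein-coding genes annotated, a difference the span limit favours by its own construction. Median expression was 17.1 FPKM (fragments scaled to transcript length and library size) over host genes and 5.88 FPKM over all 15365 genes in the table.

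The median span was 2137 bases, with the middle 50% between 1454 and 3500.5 bases. Spans below 2000 bases were found for 410 circles, from 2000 to below 5000 bases for 377, from 5000 to 10000 bases for 85 and above 10000 bases for 31. The longest span, 35385 bases, belonged to a circle of herc-1, which encodes a large ubiquitin ligase of the HECT family, and was seen in 1 library. Around the limit the list was continuous: within 50 bases inside it there were 31 circles with 122 counts, and within 50 bases outside it 34 circles with 75 counts, the nearest spans being 1001 and 998 bases.

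The long spans were mostly intron. For the 875 circles whose ends lie in 1 annotated transcript, the median circle held 4 exons and 777 spliced bases, against 2 exons and 346 spliced bases for the short circles. A single exon made up 8 of the 875 long circles (0.914%) and 355 of the short ones (37.3%). The largest number of exons in 1 circle was 23. Circles began most often at exon 2 (186 circles, 21.3%), then at exon 1 (147, 16.8%) and exon 3 (100, 11.4%), and 0 ended on the last exon of the transcript. The part between the ends lay within the coding sequence for 673 of 863 circles (78.0%) whose transcript has one.

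The introns at the back-splice junctions were long for a worm gene. The median flanking intron was 999.5 bases before the first exon of the long circles and 954 bases after the last, against 794 and 764 bases for the short circles. Introns inside the long circles had a median of 304 bases (3007 introns), all introns of the host transcripts a median of 335 bases, and all introns of protein-coding genes a median of 68 bases (109516 introns). The 147 circles that begin at exon 1 have no intron before them in the transcript used and were left out of the lengths before the circle. Among the other circles, the intron before the circle exceeded 1000 bases in 50%, a length that 7.73% of annotated introns exceed. In 226 circles the introns on both sides exceeded 1000 bases. These lengths describe the annotation and were not tested.

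**Figure D1:**
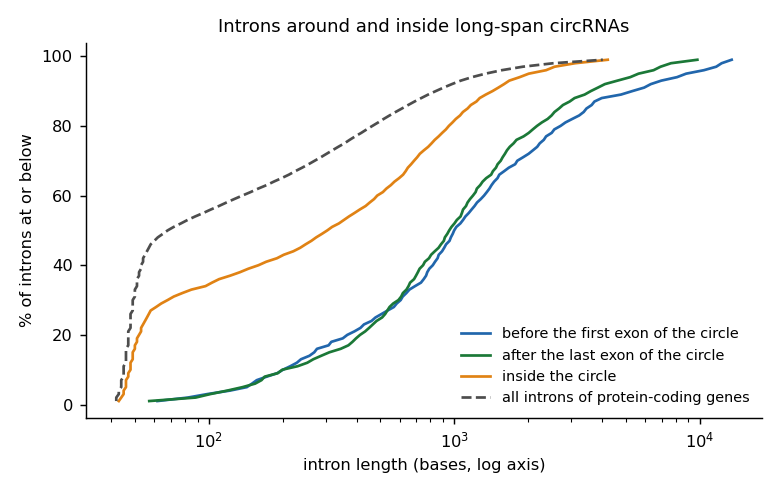
Cumulative percentage of introns at or below each length (bases, log axis) for the introns before the first exon of long circles, after their last exon, inside them, and for all introns of protein-coding genes. The lines for flanking introns cross 50% at 999.5 and 954 bases, to the right of the introns inside circles (304 bases) and of all annotated introns (68 bases).

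The circles were spread unevenly over the chromosomes. Chromosome I held 214 long circles (23.7%) and chromosome III 210 (23.3%), 12 of those on chromosome I from the gene rhgf-3, although these chromosomes hold 16.1% and 15.3% of the genes in the table. Chromosome X held 84 (9.30%) with 15.1% of the genes. The short circles had a like distribution, with 21.5% on I, 20.9% on III and 9.89% on X.

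Most long circles were rare. A count above 0 was found in 1 library only for 642 of the 903 (71.1%), in 2 for 137 and in at least 3 for 124, and 6 circles were found in all 12 libraries. Among the short circles 70.3% were found in 1 library only, and among the catalogued ones 20.2%. Of the 1507 values above 0 in the long circles, 721 were 1, 512 were 2, 75 were 3 and 102 were 4, so even values were frequent beside the odd value between them. Replicates correlated over the range seen for libraries of different groups: across long circles, which are not independent replicates, Pearson's r of log2 counts was 0.416 to 0.473 for replicates and 0.403 to 0.506 for the other pairs.

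Several circles often came from 1 gene and shared a splice site. Of the 643 hosts, 488 had 1 long circle, 155 had at least 2 and 6 had at least 5, and 224 hosts (34.8%) also gave a short circle. The acceptor, the start of the first exon of the circle, was shared with another long circle by 155 members (17.2%), and the donor, the end of its last exon, by 77 (8.53%). An acceptor shared with a short circle was found for 98 members.

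The gene with the most long circles was rhgf-3, on the minus strand of chromosome I, with 12 circles and 217 counts, 6.93% of all long-circle counts. Of these, 7 circles with 207 counts began at the same acceptor, the start of exon 2 at position 14604138, behind an intron of 12284 bases. They ran to exons 3, 5, 6, 10, 11, 13 and 14, and the circle of exons 2 to 5 (14602064 to 14604138, 2075 bases, 574 spliced) was the most counted with 102.

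**Figure D2:**
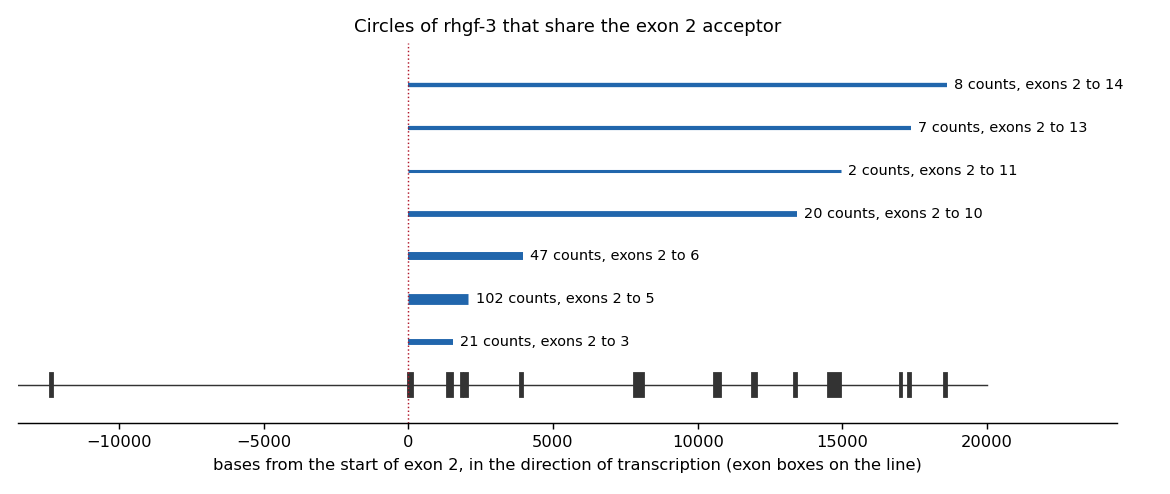
Circles of rhgf-3 that start at exon 2, drawn as bars from the shared acceptor (0) in bases along the direction of transcription, with exons as boxes on the lowest line. Bar thickness grows with the square root of the summed counts. The circle of exons 2 to 5 has 102 counts, that of exons 2 to 6 has 47, and the circles that reach exons 10 to 14 have 2 to 20.

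The summed counts of the 12 rhgf-3 circles were 13, 17 and 17 in Nar+Glu, 33, 18 and 8 in DMSO+Glu, 28, 7 and 27 in Glu, and 20, 6 and 23 in Control. Libraries with few counts (6 to 8) occurred in DMSO+Glu, Glu and Control, and all groups overlapped. The circle of exons 2 to 5 held 51.2% of the 41 counts at the shared acceptor in Nar+Glu, 42.1% of 57 in DMSO+Glu, 41.7% of 60 in Glu and 65.3% of 49 in Control. The gene itself, listed in the gene table as Y105E8A.25, was at 37.2 ± 1.21 FPKM in Nar+Glu, 35.8 ± 0.952 in DMSO+Glu, 37.4 ± 1.62 in Glu and 38.4 ± 2.08 in Control (SD, n = 3 each).

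The other hosts with at least 5 long circles were smg-6 (9), par-1 and Y79H2A.3 (6 each), and W05F2.4 and sli-1 (5 each). The gene smg-6 encodes an endonuclease of nonsense-mediated mRNA decay, par-1 a kinase of embryonic polarity, and sli-1 a Cbl-type ubiquitin ligase that restrains EGF receptor signalling. Unlike those of rhgf-3, the circles of smg-6 were spread along the gene, 8 of its 9 sharing an acceptor with 1 other. All 6 circles of Y79H2A.3 shared an acceptor, 4 of them that of exon 8 and the others that of exon 15.

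The summed counts of smg-6 were 8, 1 and 2 in Nar+Glu, 6, 4 and 0 in DMSO+Glu, 0, 2 and 1 in Glu, and 8, 0 and 0 in Control. Those of par-1 were 3, 8 and 5 in Nar+Glu, 0, 2 and 3 in DMSO+Glu, 2, 5 and 5 in Glu, and 3, 1 and 2 in Control. For smg-6 a library at 0 or 1 stood beside one at 6 or 8 in Nar+Glu, DMSO+Glu and Control. For par-1 the share of circRNA counts was 0.256%, 0.835% and 0.467% in Nar+Glu, against 0%, 0.158% and 0.323% in DMSO+Glu, and these groups overlapped. Those of sli-1 were 0, 0 and 1 in Nar+Glu, 2, 0 and 1 in DMSO+Glu, 4, 0 and 0 in Glu, and 0, 1 and 2 in Control.

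Circles of Y79H2A.3 and W05F2.4 were not seen in Control. The summed counts of W05F2.4 were 0, 4 and 0 in Nar+Glu, 0, 5 and 3 in DMSO+Glu, 1, 1 and 3 in Glu, and 0, 0 and 0 in Control. Those of Y79H2A.3 were 1, 3 and 0 in Nar+Glu, 2, 0 and 3 in DMSO+Glu, 0, 0 and 4 in Glu, and 0, 0 and 0 in Control. A count of 0 over the 3 Control libraries allows a share of up to 0.111% of circRNA counts, while the Glu means were 0.145% for W05F2.4 and 0.109% for Y79H2A.3, and 2 of the 3 Glu libraries of W05F2.4 (0.0876% and 0.1%) also lay under that limit, so no difference between Glu and Control was detectable for either host at this depth. The mRNA of W05F2.4 was at 9.50 ± 0.825 FPKM in Glu, against 6.08 ± 0.314 FPKM in Control (SD, n = 3 each; log2 change 0.57, limma adjusted p = 0.000923), and that of Y79H2A.3 had 22.8 ± 1.85 FPKM in Glu against 22.6 ± 0.878 FPKM in Control.

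The 20 most counted long circles held 28.4% of all long-circle counts. The first was a circle of exons 3 to 5 of H06I04.6 (chromosome III, 3061745 to 3062885, minus strand; 446 spliced bases), with 145 counts. It was counted 19, 10 and 13 times in Nar+Glu, 7, 19 and 8 in DMSO+Glu, 11, 13 and 7 in Glu, and 10, 19 and 9 in Control. It was present in every library, with the highest count of 19 in 3 different groups. A shorter circle with the same acceptor (3061813 to 3062885) had 23 counts in 11 libraries, 0 to 4 per library.

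After the rhgf-3 circle of exons 2 to 5 (102 counts), described above, came circles of genes for transcription and proteolysis. The circle of sma-9, a Schnurri-type zinc finger cofactor of the BMP-like body size pathway, held exons 7 to 11 (chromosome X, 10775830 to 10778540) and, with 2395 spliced bases, was mostly exon. It had 6, 4 and 10 counts in Nar+Glu, 8, 19 and 7 in DMSO+Glu, 4, 3 and 18 in Glu, and 4, 9 and 4 in Control, with the 2 highest libraries in different groups. The circles of exons 2 to 3 of clp-4, a calpain-type protease (chromosome III, 1814397 to 1815568), and of exons 2 to 3 of zip-12, a bZIP transcription factor (chromosome III, 12329464 to 12330872), had 73 and 67 counts and were found in all 12 libraries.

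The circle of exons 1 to 4 of tmem-189 (chromosome I, 11998781 to 12000232; 54 counts), whose mammalian counterpart makes plasmalogens, was the sixth member found in all 12 libraries. It had 3, 7 and 4 counts in Nar+Glu, 7, 4 and 2 in DMSO+Glu, 5, 5 and 4 in Glu, and 4, 4 and 5 in Control, the narrowest range among the 6.

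Lower in count were circles of unc-89 and unc-43. Exon 20 of unc-89, which encodes the giant obscurin-like protein of the muscle M-line, formed a circle by itself (chromosome I, 4055391 to 4057244, 1854 bases, 22 counts in 8 libraries). The circle of exons 13 to 15 of unc-43, the worm CaMKII kinase (chromosome IV, 10327602 to 10334169), spanned 6568 bases but held 262 spliced bases, with 18 counts in 6 libraries. Among circles with at least 10 counts, the longest spans were 13433 bases (rhgf-3, exons 2 to 10, 20 counts), the 6568 bases of unc-43 and 3948 bases (rhgf-3, exons 2 to 6, 47 counts).

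The other hosts among the 20 circles had 15 to 41 counts in theirs. Their hosts were ZK228.3 (35 counts), Y69A2AR.31 (31), pqn-41 (24; a glutamine- and asparagine-rich protein), vha-11 (21; subunit C of the vacuolar proton pump), rml-5 (18), C39B5.6 (15) and sql-1 (15; a golgin). The circle at F35B12.10 (chromosome V, 11628318 to 11629322, minus strand, 41 counts in 8 libraries) had an annotated exon end at its lower coordinate only, the donor side. Its other end, on the acceptor side, lay past the annotated limit of the gene.

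**Figure D3:**
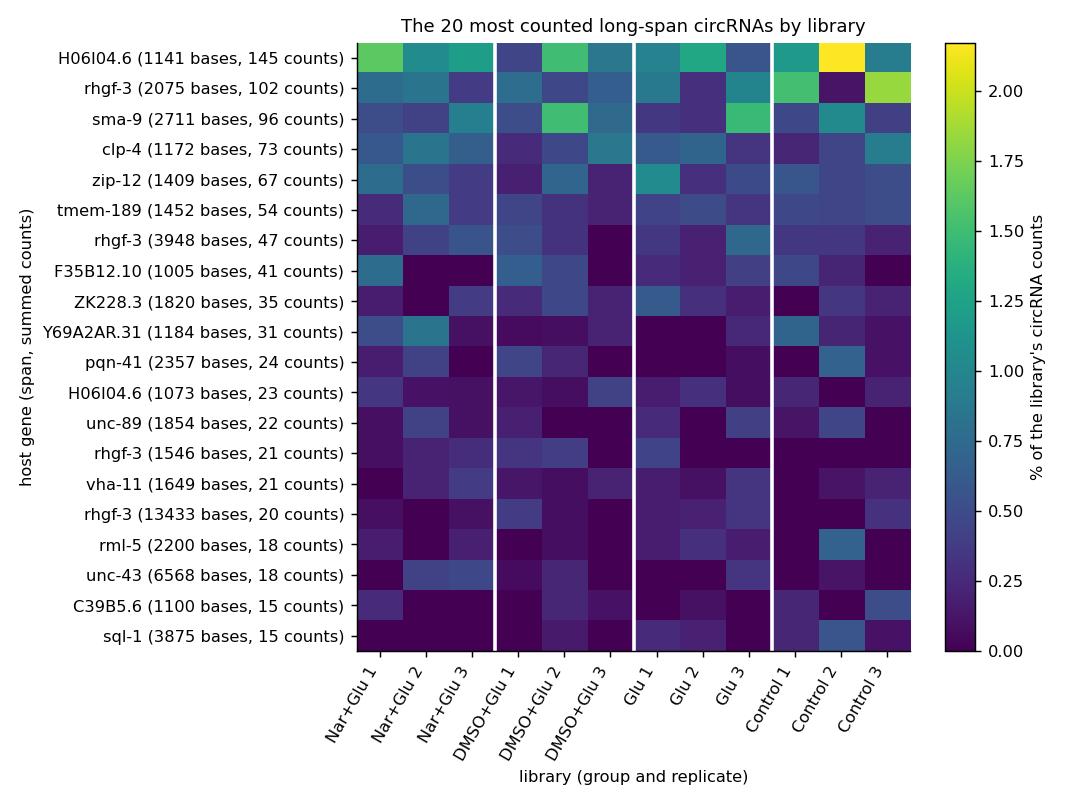
Share of each library's circRNA counts (colour, percent) taken by the 20 most counted long-span circRNAs, named by host gene with span and summed counts, in the 3 libraries of Nar+Glu, DMSO+Glu, Glu and Control. The 6 members found in all 12 libraries are the upper 6 rows, and below them dark cells (0 counts) appear in every group.

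The levels of these circles varied widely within groups. The H06I04.6 circle took 1.29 ± 0.297% of circRNA counts in Nar+Glu, 0.938 ± 0.529% in DMSO+Glu, 0.946 ± 0.363% in Glu and 1.42 ± 0.663% in Control (SD, n = 3 each). The main rhgf-3 circle took 0.659 ± 0.249% in Nar+Glu, 0.632 ± 0.151% in DMSO+Glu, 0.720 ± 0.368% in Glu and 1.16 ± 0.918% in Control. In the edgeR quasi-likelihood test the smallest unadjusted p among the 20 was 0.142 for Nar+Glu against DMSO+Glu (Y69A2AR.31), 0.0619 for Glu against Control (rhgf-3, exons 2 to 3) and 0.0893 for DMSO+Glu against Glu (pqn-41).

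The first question of the design was whether long circles take another share of circRNA with naringin, with glucose or with the solvent. They took 23.2%, 26.4% and 24.2% of circRNA counts in Nar+Glu, 23.7%, 25.9% and 22.2% in DMSO+Glu, 25.0%, 22.3% and 27.4% in Glu, and 23.5%, 22.7% and 20.8% in Control. All 4 groups overlapped. Over summed counts this was 784 of 3200 in Nar+Glu (24.5%), 902 of 3744 in DMSO+Glu (24.1%), 842 of 3362 in Glu (25.0%) and 603 of 2709 in Control (22.3%).

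The difference of mean shares was 0.66 percentage points for Nar+Glu minus DMSO+Glu (exact two-sided permutation test, p = 0.7), 2.55 for Glu minus Control (p = 0.3, exact) and -0.93 for DMSO+Glu minus Glu (p = 0.6, exact). With 3 libraries against 3 the smallest p is 0.1. An exact test over the 15400 partitions of the 12 libraries into 4 groups gave p = 0.421. Differences of this size could not be told from the spread between libraries.

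The number of different long circles was lowest in Control. At a common depth of 856 counts, that of the smallest library, the expected number was 109.1, 115.6 and 105.2 in Nar+Glu, 129.2, 121.6 and 106.2 in DMSO+Glu, 114.8, 109.3 and 124.9 in Glu, and 97, 94.0 and 93.4 in Control. Every Control library lay below every library of the other groups, which overlapped each other. Glu averaged 116.3 ± 7.9 and Control 94.8 ± 1.93 (SD, n = 3 each), a difference of 21.5 (exact permutation p = 0.1, the smallest this design allows; adjusted p = 0.6 over the 12 permutation tests of the 3 library measures). With a span minimum of 2000 bases the difference was 7.41 and the groups overlapped (exact permutation p = 0.2).

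The same number differed by -9.03 for Nar+Glu minus DMSO+Glu (exact permutation p = 0.3) and by 2.68 for DMSO+Glu minus Glu (exact permutation p = 0.8). Over the 4 groups the exact test gave p = 0.0234, which did not pass adjustment (adjusted p = 0.281). The short circles, counted the same way, averaged 122.5 ± 5.51 in Glu and 112.9 ± 6.14 in Control with overlapping libraries. They averaged 116.2 ± 12.8 in Nar+Glu and 131.1 ± 4.25 in DMSO+Glu, so Control had the lowest mean there too. The catalogued circles averaged 103.6 ± 5.00 in Glu and 103.1 ± 2.54 in Control. Over all circRNAs, long circles included, Glu (328.2 to 352.2) lay above Control (305.3 to 318), while Nar+Glu replicate 3 (314.8) lay within the Control range. Whether long circles differ from these classes was not tested.

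Other measures also differed between Glu and Control, but not all of them set Control apart from Nar+Glu and DMSO+Glu. Among single libraries, Nar+Glu replicate 2 (958 circRNA counts in all) and DMSO+Glu replicate 3 (929) lay below Control replicate 3 (978). The total circRNA count was 1121 ± 111.5 in Glu and 903 ± 65.6 in Control (exact permutation p = 0.1), and the 20 most counted long circles held 28.8%, 23.8% and 27.2% of long-circle counts in Glu, against 28.9%, 37.2% and 34.0% in Control. Summed FPKM of 8 neuronal markers was 161 to 179 in Glu and 133 to 149 in Control, that of 8 body wall muscle markers 524 to 571 in Glu and 391 to 476 in Control, that of 4 pharynx markers 87.8 to 104.0 in Glu and 47.1 to 59.7 in Control, and that of 8 germline markers 1326 to 1455 in Glu and 1519 to 1657 in Control. Hypodermis markers summed to 161 to 174 in Glu and 131 to 153 in Control, and sperm markers to 61.0 to 65.3 in Glu and 31.2 to 41.4 in Control. Intestine markers overlapped (661 to 706 in Glu and 680 to 736 in Control). In Nar+Glu, muscle markers (432 to 499) overlapped Control, and hypodermis (81.9 to 87.2) and sperm markers (12.6 to 16.6) lay below it. In DMSO+Glu, hypodermis (139 to 160.4) and sperm markers (35.8 to 39.1) overlapped Control. Neuronal, pharynx and germline markers did set Control apart from all other groups. Among those markers 2 neuronal genes (unc-31, unc-64) and 3 muscle genes (unc-22, lev-11, unc-89) were hosts of long circles, and 0 of the germline, intestine, hypodermis, sperm and pharynx markers were. The span limit favours long genes, and the median gene length was 6191 bases for the neuronal and 8754 for the muscle markers. It was 2710 bases for germline, 3077.5 for intestine, 1258 for hypodermis and 384 for sperm markers. The 4 pharynx markers, with 0 hosts, had a median of 7277 bases, longer than the neuronal ones. The part of tissue makeup and depth in the number of circles was not tested, and in whole worms fewer cells of a type and less RNA per cell cannot be told apart.

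The groups overlapped in the length of their circles. The count-weighted median span was 1909 ± 233 bases in Nar+Glu, 2002 ± 31.3 in DMSO+Glu, 1829 ± 241 in Glu and 1951 ± 165 in Control (SD, n = 3 each). The differences were -92.7 bases for Nar+Glu minus DMSO+Glu (exact permutation p = 0.4), -121.3 for Glu minus Control (p = 0.7, exact) and 172.5 for DMSO+Glu minus Glu (p = 0.4, exact), and the test over 4 groups gave an exact p = 0.716.

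**Figure D4:**
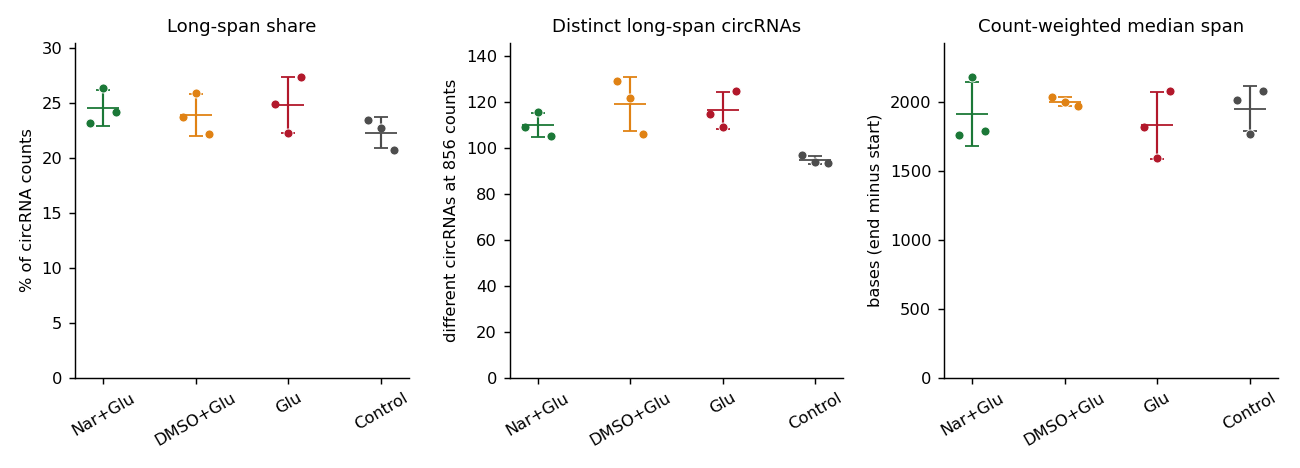
Long-span share of circRNA counts (percent), number of different long-span circRNAs expected at 856 counts, and count-weighted median span (bases) in Nar+Glu, DMSO+Glu, Glu and Control. Points are libraries, horizontal lines means and bars SD (n = 3 each). The Control libraries (93.4 to 97) lie below all others in the number of circles, and the groups overlap in the other measures.

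In group terms, 307 long circles were detected in Nar+Glu, 356 in DMSO+Glu, 340 in Glu and 248 in Control, and 35 in all 4 groups. Detection in 1 group only was found for 170 in Nar+Glu, 195 in DMSO+Glu, 188 in Glu and 126 in Control. That was 55.4%, 54.8%, 55.3% and 50.8% of the long circles detected in these groups, and over all circRNAs the shares were 42.0%, 46.2%, 45.6% and 38.0%. The groups differ in depth, with 3200, 3744, 3362 and 2709 circRNA counts in this order. Those found in all 3 libraries of a group numbered 16 in Nar+Glu, 17 in DMSO+Glu, 17 in Glu and 10 in Control.

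Single circles were then compared. Only 55 long circles had at least 2 counts in at least 3 libraries, among 239 circRNAs that did. With edgeR, 0 of the 55 passed an adjusted p below 0.05 in any of the 3 comparisons, as did 0% of all 239 circRNAs, and the smallest adjusted p among them was 0.824 for Nar+Glu against DMSO+Glu, 0.794 for Glu against Control and 0.647 for DMSO+Glu against Glu. At the threshold of the study, an unadjusted p below 0.05 with more than a 1.5-fold change, 3 of 55 passed for Nar+Glu against DMSO+Glu, against 5.44% of all circRNAs tested. For Glu against Control 0 passed (2.51% of all), and for DMSO+Glu against Glu 3 passed (5.02% of all). These shares were near or below the background, and DESeq2 gave 0 long circles at an unadjusted p below 0.05 in each comparison.

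The members with the smallest p for Nar+Glu against DMSO+Glu belonged to daf-19, sms-3 and ZK1055.4. The circle of daf-19, the RFX transcription factor of ciliated neurons (chromosome II, 10166141 to 10169346), had 0, 0 and 0 counts in Nar+Glu, against 4, 2 and 3 in DMSO+Glu. The circle of sms-3, a sphingomyelin synthase gene (chromosome III, 1587809 to 1589444), had 0, 0 and 0 counts in Nar+Glu, against 1, 4 and 3 in DMSO+Glu. In both circles every DMSO+Glu library had counts and no Nar+Glu library did. The filter of at least 2 counts in at least 3 libraries was met by daf-19 in DMSO+Glu alone, while sms-3 also needed Control replicate 1. The filter thus favours such a pattern, and no support is drawn from it. Groups whose shares did not overlap were found for 3 of the 55 long circles tested, against 7.11% of all 239 circRNAs.

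Neither passed adjustment, with an edgeR unadjusted p of 0.0322 for daf-19 and 0.0382 for sms-3 (adjusted p = 0.824 for each). The daf-19 circle also had 0, 0 and 2 counts in Glu and 0, 1 and 0 in Control. The circle at ZK1055.4 (chromosome V, 6582401 to 6583840), whose ends also fit a pseudogene, had 0, 0 and 8 counts in Nar+Glu, against 0, 0 and 0 in DMSO+Glu. It rested on 1 library, and without Nar+Glu replicate 3 both groups were at 0.

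For Glu against Control the smallest p were those of the rhgf-3 circle of exons 2 to 3 (14602593 to 14604138), a circle of ZK228.3 (chromosome V, 18458900 to 18460346) and one of ccct-1 (chromosome I, 13782064 to 13783519). They had 5, 0 and 0 counts, 0, 2 and 3 counts, and 3, 0 and 2 counts in Glu, against 0 in every Control library. The groups overlapped at 0 for all of them, and 0 of the 55 long circles tested had groups that did not overlap (5.02% of all circRNAs). Each had 5 counts in Glu, those of rhgf-3 in 1 library (edgeR unadjusted p = 0.0619, 0.0875 and 0.0979, adjusted p = 0.794 for each). The rhgf-3 circle was also counted 1, 2 and 3 times in Nar+Glu and 5, 5 and 0 times in DMSO+Glu.

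For DMSO+Glu against Glu the smallest p were those of circles of Y73E7A.3 (chromosome I, 1584284 to 1586339), sms-3 and cdkr-3 (chromosome V, 20271854 to 20272889, 1 exon). Y73E7A.3 had 2, 2 and 4 counts in DMSO+Glu, sms-3 had 1, 4 and 3, and cdkr-3 had 4, 2 and 2, against 0 in every Glu library. The groups did not overlap for these circles, as for 4 of the 55 tested in all, against 8.79% of all 239 circRNAs. The DMSO+Glu libraries sufficed for Y73E7A.3 to pass the count filter. The sms-3 circle also needed Control replicate 1, and for cdkr-3 the DMSO+Glu libraries sufficed again. Here too the filter favours circles absent from Glu, so no support is drawn from the lack of overlap. The edgeR unadjusted p was 0.0343, 0.0412 and 0.0434, and the adjusted p 0.647 for each. The sms-3 circle appears in 2 comparisons that share the DMSO+Glu libraries, and it also had 2, 0 and 0 counts in Control.

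**Figure D5:**
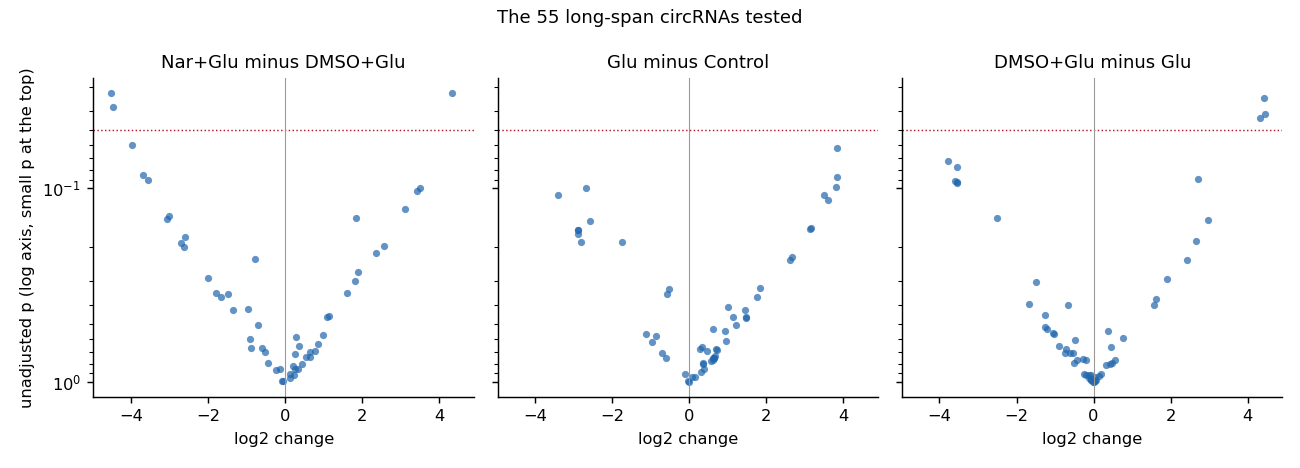
Fitted log2 change (horizontal) and unadjusted edgeR p (vertical, log axis with small p at the top) of the 55 long-span circRNAs tested, for Nar+Glu minus DMSO+Glu, Glu minus Control and DMSO+Glu minus Glu. The dotted line is at 0.05, above which lie 3, 0 and 3 circles, and changes beyond about 3 in size come largely from groups with 0 counts, for which the fitted value is no bound.

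Host genes were measured far more precisely than their circles. Of 611 host genes tested on log2(FPKM + 1) with limma, 58 were called for Nar+Glu against DMSO+Glu (9.49%, against 9.87% of all genes), 41 higher and 17 lower in Nar+Glu, where all genes gave 4.87% higher and 5% lower. For Glu against Control 166 were called (27.2%, against 31.3% of all genes), 81 higher and 85 lower, where all genes gave 12.6% higher and 18.7% lower. The balance of directions turned with the scaling and the libraries: median-ratio scaling gave 111 higher and 63 lower, the fit without Glu replicate 1 gave 48 higher and 92 lower, and that without Glu replicate 2 gave 75 higher and 37 lower. For DMSO+Glu against Glu 0 host genes were called by limma (1.25% of all genes, 0.379% higher and 0.872% lower), with 26 at an unadjusted p below 0.05. The median change of host genes was 0.01, -0.05 and -0.01 on the log2 scale in these comparisons, beside -0.01, -0.06 and 0.00 over all genes.

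Among the 20 most counted circles, 7 of the 19 with a tested host had a host called for Glu against Control, beside 31.3% of all genes. This tally counts circles and not genes, with H06I04.6 counted for 2 circles and rhgf-3, which was not called (limma adjusted p = 0.658), for several. The host was higher in Glu for H06I04.6, sma-9, clp-4, Y69A2AR.31 and unc-89 and lower for ZK228.3 (log2 change -0.51, limma adjusted p = 0.00800). H06I04.6 was at 10.4 ± 0.00722 FPKM in Glu, against 6.85 ± 0.364 FPKM in Control (log2 change 0.54, limma adjusted p = 0.0108), and the log2 change of its main circle was -0.52 (SE 0.53, edgeR adjusted p = 0.804). The unc-89 gene was at 23.5 ± 1.05 FPKM in Glu and 15.9 ± 1.57 FPKM in Control (0.54, limma adjusted p = 0.000367), beside 0.36 for its circle (SE 1.40, edgeR adjusted p = 0.994). For clp-4 the gene changed by 0.51 (limma adjusted p = 0.000596) and the circle by 0.06 (SE 0.76, edgeR adjusted p = 0.998). The difference between the change of a gene and that of its circle was not tested.

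Genes that can shape back-splicing were examined beside the circles. Of 32 genes for splicing regulation, RNA editing, debranching and RNA turnover, 31 were tested. For Nar+Glu against DMSO+Glu 4 were called (12.9%, against 9.87% of all genes), all higher in Nar+Glu: sup-12, exc-7, mec-8 and unc-75, which encode RNA-binding regulators of splicing. For Glu against Control 8 were called (25.8%, against 31.3% of all genes), with endu-1, sup-12 and exc-7 higher and drh-3, adr-2, asd-1, adr-1 and rsp-2 lower in Glu, and for DMSO+Glu against Glu 0 were. That balance turned with median-ratio scaling, which gave 6 higher and 3 lower. The call of rsp-2 was lost in 8 of 10 alternatives, median-ratio scaling (adjusted p = 0.0717), the replicate block (0.0601) and no filter (0.0571) among them, and that of exc-7 for Glu against Control in 6 of 10, the 6 that left out 1 library. The median change of the list was 0.00, -0.09 and -0.02 on the log2 scale in the 3 comparisons.

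The muscle regulator sup-12 was at 9.98, 9.30 and 9.27 FPKM in Nar+Glu, against 5.58, 7.55 and 6.71 FPKM in DMSO+Glu, with no overlap (log2 change 0.47, SE 0.11, limma adjusted p = 0.0174). It was at 7.66, 6.56 and 8.13 FPKM in Glu, against 5.70, 5.40 and 4.88 FPKM in Control (0.41, limma adjusted p = 0.0141). The Elav-type regulator exc-7 averaged 8.74 ± 0.991 FPKM in Nar+Glu, against 6.47 ± 0.409 FPKM in DMSO+Glu (SD, n = 3 each; 0.38, limma adjusted p = 0.0239). The sup-12 call was lost for Nar+Glu against DMSO+Glu without Nar+Glu replicate 1 (limma adjusted p = 0.0637) or DMSO+Glu replicate 1 (0.0812) and for Glu against Control without Glu replicate 3 (0.0634), and without Nar+Glu replicate 1 none of the 4 calls for Nar+Glu against DMSO+Glu was left. Tissue markers also separated these groups. Neuronal markers summed to 180.0 to 185 FPKM in Nar+Glu and 155 to 176 FPKM in DMSO+Glu, and were higher in Nar+Glu. Body wall muscle markers (432 to 499 FPKM in Nar+Glu and 505 to 518 in DMSO+Glu), intestine markers (577 to 590.0 in Nar+Glu and 738 to 753 in DMSO+Glu), hypodermis markers (81.9 to 87.2 in Nar+Glu and 139 to 160.4 in DMSO+Glu) and sperm markers (12.6 to 16.6 in Nar+Glu and 35.8 to 39.1 in DMSO+Glu) were lower there. Germline markers were lower in Nar+Glu too (1207 to 1284 FPKM, against 1331 to 1469 FPKM in DMSO+Glu). Pharynx markers overlapped (85.4 to 92.8 FPKM in Nar+Glu and 80.7 to 91.5 FPKM in DMSO+Glu). The part of tissue makeup in these changes was not tested.

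The editing genes, whose products act on double-stranded RNA such as paired introns, were called lower in Glu, with calls that depended on single libraries. The deaminase gene adr-2 was at 46.8, 43.1 and 41.7 FPKM in Glu, against 59.4, 49.5 and 51.6 FPKM in Control, with no overlap (log2 change -0.28, SE 0.08, limma adjusted p = 0.0173). That call was lost without Glu replicate 2 (limma adjusted p = 0.0514), Glu replicate 3 (0.0710) or Control replicate 1 (0.0668). Its partner adr-1 was at 21.1, 20.8 and 22.7 FPKM in Glu, against 24.8, 25.8 and 23.7 FPKM in Control (-0.19, limma adjusted p = 0.0352), a call lost without Glu replicate 1, Glu replicate 2, Control replicate 1 or Control replicate 2 (limma adjusted p = 0.0634 to 0.107) and under median-ratio scaling (0.102). The helicase gene drh-3 changed by -0.29 (limma adjusted p = 0.00691), the Fox-1 family gene asd-1 by -0.27 (limma adjusted p = 0.0211, and 0.0915 without Glu replicate 2 or 0.0694 without Control replicate 1), and the endoribonuclease gene endu-1 by 0.48 (limma adjusted p = 0.00274).

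The gene dbr-1, which encodes the lariat debranching enzyme, was not called in any comparison. Expression of dbr-1 was 20.7 ± 1.97 FPKM in Nar+Glu, 21.1 ± 2.24 in DMSO+Glu, 21.3 ± 1.25 in Glu and 23.6 ± 0.499 in Control (SD, n = 3 each).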

How the data were processed

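The authors aligned the reads with STAR (2.5.2b), called circles with CIRCexplorer2 and deposited raw back-splice counts per circRNA and library on WBcel235. The deposited gene FPKM were computed by the authors with HISAT2 (2.1.0) and StringTie (1.3.3). Long circles were rows named by position with end minus start of at least 1000. Starts were 0-based as written (98.6% met an exon start of Ensembl 115 after adding 1, 0.997% before), so 1 was added. Members and lists were chosen with earlier results of these data known.

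Shares were scaled to the total circRNA count of the library, and distinct circles by hypergeometric rarefaction. Library measures were compared with exact permutation tests. CircRNA counts were fitted with edgeR 4.0.16 (TMM, all 12 libraries, at least 2 counts in at least 3), genes with a mean above 1 FPKM with limma 3.58.1 (trend, log2(FPKM + 1), where changes of low genes are understated). The SE printed for a circle was derived, as the size of its log2 change divided by the square root of the edgeR F statistic. DESeq2 1.42.0 was an alternative. P-values were adjusted by Benjamini-Hochberg over all features of a comparison.

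The members named were the 20 with most counts, the 3 with smallest p per comparison, the 3 longest with at least 10 counts and those of hosts with at least 5 members. From the splicing list up to 6 called genes were named, with adr-1, adr-2 and dbr-1 (mec-8, unc-75 and rsp-2 were added after their values were seen), and 1 gene of the list is not reported here. The tests were checked on simulated data, where edgeR recovered 2, 0 and 1 of 40 circRNAs changed 4-fold among 239 for Nar+Glu against DMSO+Glu, Glu against Control and DMSO+Glu against Glu. The depth of the gene values is unknown, since FPKM keep no fragment totals.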

Additional observations from a re-analysis of the deposited data

How the results depend on the processing

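Few long circles had counts enough to test, and an absent call is no sign of equal levels. The difference in share between Nar+Glu and DMSO+Glu became -0.35 percentage points with a span minimum of 2000 bases and lay between -0.24 and 1.65 over the libraries left out in turn (-0.24 without Nar+Glu replicate 2, -0.23 without DMSO+Glu replicate 3). That between DMSO+Glu and Glu became 0.24 with the longer minimum and lay between -2.22 and 0.32 (0.32 without Glu replicate 3). The difference in distinct circles between DMSO+Glu and Glu lay between -2.40 and 9.07 (-2.40 without DMSO+Glu replicate 1, -0.84 without Glu replicate 2), and that between Glu and Control between 17.3 and 25.0, but fell to 7.41 with a span minimum of 2000 bases. The difference in share between Glu and Control kept its direction, at 0.81 with the longer minimum, 0.79 over circles found in at least 3 libraries and 1.3 to 3.84 with libraries left out. The median span differed by -244 to -3.17 bases between Glu and Control and by -227 to -17.8 between Nar+Glu and DMSO+Glu with libraries left out. The cause of these reversals was not tested.

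The count of long circles at the threshold of the study was 0 for Nar+Glu against DMSO+Glu and for DMSO+Glu against Glu with at least 5 counts in 3 libraries and with DESeq2, and 1 for Glu against Control with no filter on low counts. Leaving out 1 library gave 0 to 2, 0 to 3 and 0 to 2 for Nar+Glu against DMSO+Glu, Glu against Control and DMSO+Glu against Glu. Adjusted calls stayed at 0 in each of 39 alternatives. With libraries left out, called host genes numbered 17 to 50 for Nar+Glu against DMSO+Glu and 70 to 169 for Glu against Control, and called splicing genes 0 to 5 and 3 to 9, where fewer libraries also weaken the test. The lowest counts for hosts came without Nar+Glu replicate 1, DMSO+Glu replicate 1 or DMSO+Glu replicate 3 (17 each) and without Glu replicate 3 (70).

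The replicate numbers did not pair the libraries: correlations of same-numbered libraries were -0.173 to 0.202 over circRNAs and -0.1 to 0.128 over genes (18 pairs each). With the replicate number as a block, 0 long circles passed the threshold of the study for Nar+Glu against DMSO+Glu and 0 for DMSO+Glu against Glu.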
